A study of Homo sapiens with 8 samples.

Results

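The genes described here build, steer and split the mitotic cell: 58 genes for mitotic kinases and cyclins, the spindle checkpoint, the kinetochore, mitotic kinesins, the chromosomal passenger complex, cytokinesis and spindle assembly. The members were listed by name, with earlier results of these data known. Their counts beside those of all probe sets therefore describe this list and are no test of it. A member was read through the probe set that carried exactly 1 gene symbol, and through the one with the highest mean over the 8 arrays where there were several. By this rule 57 of the 58 were measured, out of 18417 genes with such a probe set; CENPA lay only on a probe set shared with other symbols and was left out. Of the 57, 43 had a mean signal above the median of all probe sets (7.30 on the log2 scale).

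Transcripts of these genes are made mainly late in the cell cycle, when cells prepare to divide, and most are low in resting cells. Cyclin B with CDK1 drives entry into mitosis, the kinetochore ties each chromosome to spindle microtubules, and the checkpoint holds back chromosome separation until all are attached. Kinesins move and shape the spindle, and the cytokinesis proteins pinch the daughter cells apart. In estrogen receptor-positive breast cancer cells, estradiol (E2) is known to stimulate division.

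The cells were T47D, an established luminal breast cancer line that carries the estrogen receptor. They were held in charcoal-stripped, steroid-poor medium and transfected with 200 nM of either a scrambled control siRNA or a mix of 3 siRNAs to 17β-HSD1, the HSD17B1 product that converts estrone to E2. From 48 h after transfection they had 1 nM E2 or ethanol vehicle for 2 days. The 4 groups of 2 arrays, 1 array from each of 2 separate culture experiments, are called control-vehicle, control-E2, siRNA-vehicle and siRNA-E2 below. The study asked how lowering 17β-HSD1 alters gene expression and the response to E2. For the mitotic genes this gives an E2 effect with each siRNA and an siRNA effect in each medium.

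The deposited values were log2 signals from whole-transcript arrays, with array medians between 7.25 and 7.37. Replicate 1 of siRNA-vehicle stood apart, with a mean correlation to the other arrays of 0.973 against 0.981 to 0.988. Luminal keratins KRT8, KRT18 and KRT19 were bright in all arrays (means 12.83 to 13.39), and the estrogen receptor gene ESR1 read 8.68 on average. The 7 measured immune markers read from 4.62 (PTPRC) to 7.23 (CD68). The 7 fibroblast markers read from 4.96 (FAP) to 8.86 (COL1A1), the latter above ESR1. Across the lists of luminal, basal, fibroblast, immune and endothelial markers, 0 genes passed the threshold in either averaged effect; at an unadjusted p below 0.05 there were 3 luminal genes and 1 fibroblast gene for E2, and 4 and 1 for the siRNA. Over all probe sets, 8.89% for E2 and 9.44% for the siRNA had such a p in either direction. HSD17B1 itself read 9.35 and 8.66 in control-vehicle, 9.12 and 8.56 in control-E2, 8.41 and 8.36 in siRNA-vehicle, and 8.32 and 8.37 in siRNA-E2. All 4 arrays with the HSD17B1 siRNA lay below all 4 control arrays, which held for 2.16% of probe sets. The averaged difference of -0.56 ± 0.16 (SE, log2, 4 arrays against 4) did not pass limma's test (adjusted p = 0.221).

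All 57 measured mitotic genes were higher with E2 and lower with the 17β-HSD1 siRNA when each effect was averaged over the other factor. E2 raised 45 of them past the threshold, a Benjamini-Hochberg adjusted p below 0.05 in limma over 21214 probe sets, and lowered 0. Over all probe sets, 1.32% were called higher with E2 and 0.226% lower. The median E2 change of the members was 0.89 on the log2 scale (range 0.29 to 1.36), against -0.02 over all probe sets. In 42 members every E2 array lay above every vehicle array, which held for 2.94% of probe sets. The 17β-HSD1 siRNA lowered 14 members past the threshold, where 0.217% of all probe sets were called lower. Its median change in the members was -0.52 (range -0.84 to -0.10), against 0.01 over all probe sets. All 4 siRNA arrays lay below all 4 control arrays in 0 members, against 2.16% of probe sets; each of these sets of 4 arrays holds both media. In bulk RNA, fewer dividing cells and less transcript per cell cannot be told apart.

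In 56 of the 57 genes the group means stood in the same order: siRNA-vehicle was lowest, then control-vehicle, then siRNA-E2, with control-E2 highest. The exception was SGO2, a shugoshin that protects centromeric cohesin, whose siRNA-vehicle mean lay 0.01 above its control-vehicle mean. With each gene centred on its own mean, the members averaged -0.70 and -0.72 in siRNA-vehicle and -0.25 and -0.03 in control-vehicle. They averaged 0.14 and 0.26 in siRNA-E2 and 0.45 and 0.86 in control-E2. Neighbouring groups therefore did not overlap on this average, although the replicates of control-E2 lay 0.41 apart. Replicate 2 of control-E2 was the highest of the 8 arrays for 55 members, and an siRNA-vehicle array was the lowest for 54 (30 in replicate 2 and 24 in replicate 1).

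**Figure D1:**
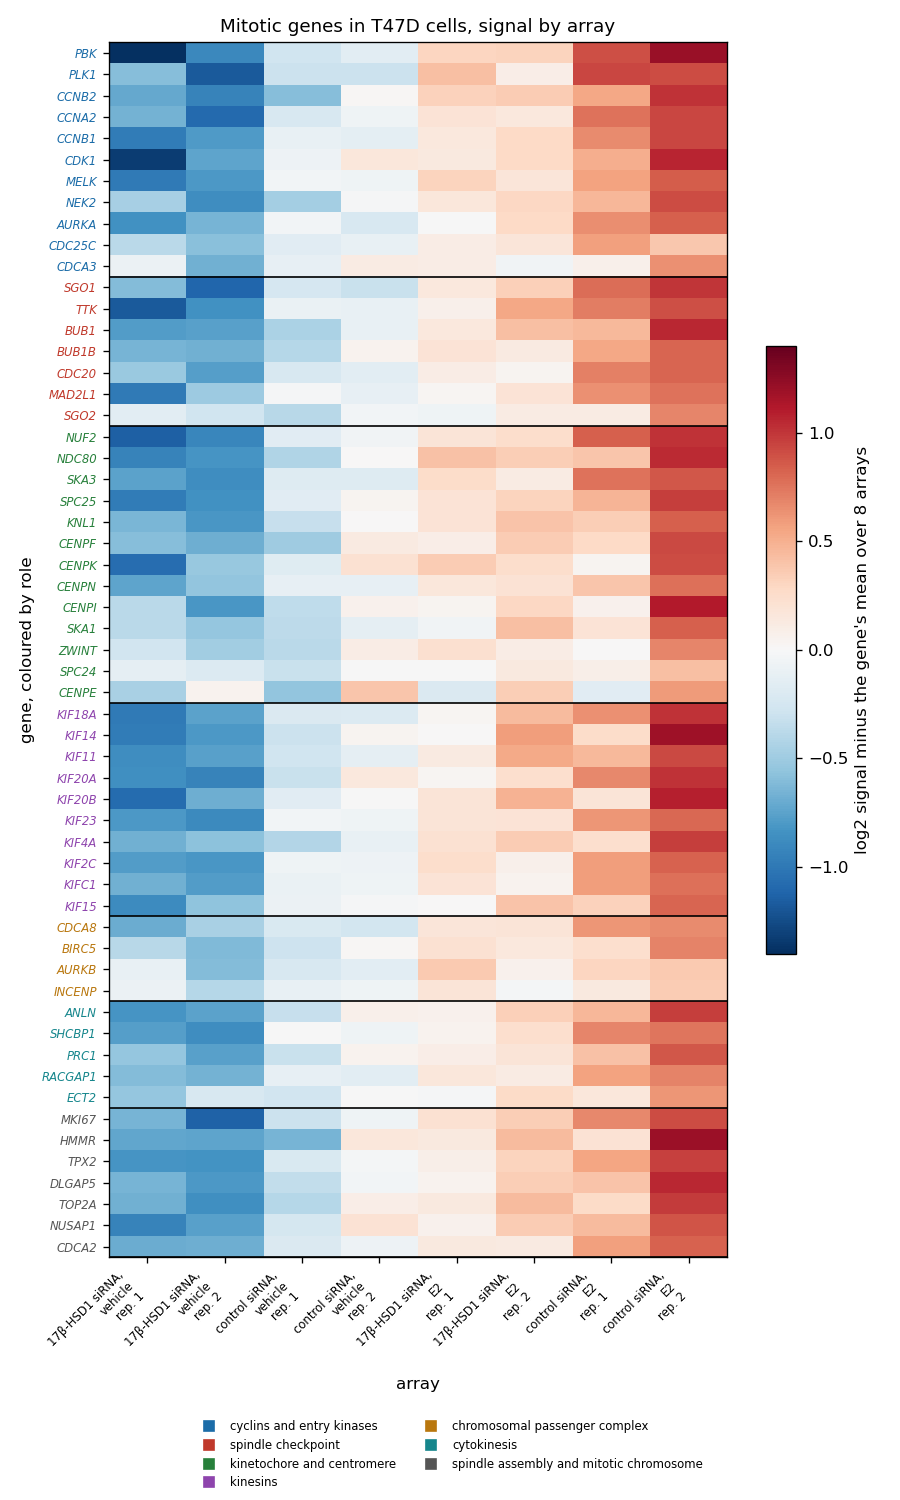
Signal of the 57 measured mitotic genes in each of the 8 arrays, as log2 signal minus the gene's mean over the arrays, with genes grouped by role and arrays ordered by group. The members average -0.70 and -0.72 in the siRNA-vehicle arrays on the left and 0.45 and 0.86 in the control-E2 arrays on the right.

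The DNA before the start sites of the members was searched for motifs known from genes of late cell cycle timing. The members are genes of this kind, so a high share of these motifs comes with the choice of the list. The shares say nothing about the E2 or siRNA changes. The RefSeq table of promoters (GRCh38.p14, 250 bases before to 50 after each start, 300 in all) held 50 of the 58 members, of which 49 were measured, with 57 entries because 6 members had several. The CHR, or cell cycle genes homology region, is bound by complexes that hold LIN54 together with either repressors or the activators MYBL2 and FOXM1. The CCAAT box is bound by the factor NF-Y. The CHR letters TTTGAA or TTCGAA, on either strand, occurred in 37 of 49 members (75.5%) against 17.5% of 15843 protein-coding genes. Within 50 bases of the start they occurred in 34 members (69.4%) against 5.23%; this window was chosen after the matches were seen. The letters CCAAT, on either strand, occurred in 38 members (77.6%) against 42.1%, and both motifs in 30 members (61.2%) against 7.28%.

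The E2F motif (TTTGGCGC or TTTCGCGC or TTTCCCGC or TTTGCCGC, either strand) was matched in 3 members, CDK1, KIF15 and NUSAP1 (6.12%), near the 5.4% of coding genes. The full palindromic estrogen response element was matched in 0 of 49 members and in 0.0505% of coding genes, and its absence from a window of this size says nothing about the receptor. CHR and CCAAT matches shared bases in 2 members, CDCA8 and MKI67. A match is a string of letters and not a shown binding site. The 37 members with a CHR match had a median E2 change of 0.90 and a median siRNA change of -0.52. The 12 without one, among them CCNA2, CCNB1, KIF2C, KIF20A and MELK, had medians of 0.82 and -0.47. All 57 measured members lay above 0 for E2 and below 0 for the siRNA, so the side of 0 was fixed for both sets. Only TTTGAA and TTCGAA were searched, so a member without a match may still carry another form of the CHR.

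The 8 promoter stretches below run from 120 bases before to 30 bases after the RefSeq start, 150 bases each, 5′ to 3′ on the gene's strand in GRCh38.p14. They were picked after the matches were seen. NUF2 and SKA3 have a CHR match and no CCAAT match, PLK1, CCNB2, CDCA8 and KIF23 have both, and CCNB1 and SPC24 have CCAAT matches alone. Capitals mark CHR matches (TTTGAA, or TTCAAA on the other strand) and CCAAT matches (CCAAT, or ATTGG on the other strand).
NUF2, chr1:163321834-163321983, plus strand: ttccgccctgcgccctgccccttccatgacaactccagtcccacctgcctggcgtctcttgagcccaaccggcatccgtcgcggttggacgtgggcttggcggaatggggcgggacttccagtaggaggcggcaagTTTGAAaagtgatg
SKA3, chr13:21176523-21176672, minus strand: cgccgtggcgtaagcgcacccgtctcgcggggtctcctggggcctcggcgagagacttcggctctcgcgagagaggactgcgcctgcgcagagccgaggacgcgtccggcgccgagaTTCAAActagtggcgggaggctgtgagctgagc
PLK1, chr16:23678769-23678918, plus strand: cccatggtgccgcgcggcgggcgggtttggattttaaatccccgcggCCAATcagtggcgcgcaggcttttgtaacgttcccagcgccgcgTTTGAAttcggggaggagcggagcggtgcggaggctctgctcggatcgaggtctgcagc
CCNB2, chr15:59105026-59105175, plus strand: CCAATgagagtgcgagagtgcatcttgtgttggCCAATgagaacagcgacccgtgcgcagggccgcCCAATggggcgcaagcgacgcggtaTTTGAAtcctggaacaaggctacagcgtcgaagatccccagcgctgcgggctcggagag
CDCA8, chr1:37692396-37692545, plus strand: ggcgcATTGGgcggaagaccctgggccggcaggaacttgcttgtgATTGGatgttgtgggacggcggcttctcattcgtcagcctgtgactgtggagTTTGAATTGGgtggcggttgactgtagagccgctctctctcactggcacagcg
KIF23, chr15:69414229-69414378, plus strand: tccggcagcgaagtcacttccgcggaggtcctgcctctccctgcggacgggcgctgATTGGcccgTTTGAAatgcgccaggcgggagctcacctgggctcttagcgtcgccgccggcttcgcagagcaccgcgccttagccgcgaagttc
CCNB1, chr5:69167030-69167179, plus strand: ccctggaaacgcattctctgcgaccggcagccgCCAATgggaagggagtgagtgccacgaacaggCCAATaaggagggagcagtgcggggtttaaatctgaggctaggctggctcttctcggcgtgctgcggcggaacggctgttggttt
SPC24, chr19:11155753-11155902, minus strand: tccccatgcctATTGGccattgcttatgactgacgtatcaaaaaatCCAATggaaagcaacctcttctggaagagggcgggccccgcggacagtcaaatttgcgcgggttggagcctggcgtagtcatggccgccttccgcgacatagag

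In PLK1 and CCNB2 the CHR match begins 29 bases before the start, in CDCA8 23 bases and in SKA3 3 bases before it, and in KIF23 it lies 55 bases before it. That of NUF2 begins at base 17 after the start. By role, a CHR match was found in 8 of 10 kinesins, 8 of 12 kinetochore genes, 5 of 9 cyclins and entry kinases, 5 of 6 checkpoint genes, 4 of 4 cytokinesis genes, 2 of 3 passenger complex genes and 5 of 5 spindle assembly genes with a promoter entry. The promoters of NUF2 and SPC24, whose products sit in the same kinetochore complex, thus differ in these letters, and the genes lie at the top and near the bottom of the E2 changes of their role (1.14 against 0.32). These are single genes, and the pair does not stand for the list. In the same role CENPK and CENPI, without a CHR match, changed more with E2 than ZWINT, which has one. Over all members with a promoter entry, E2 changes ranged from 0.33 to 1.18 with a CHR match and from 0.29 to 1.02 without one. No test relates the letters to the change.

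The counts by role that follow stand beside 1.32% of all probe sets called higher with E2 and 0.217% called lower with the siRNA. Among the cyclins and kinases of mitotic entry, 10 of 11 rose with E2 (median change 0.99). With the siRNA 4 of 11 fell (PBK, CCNB1, MELK and CCNA2), with a median of -0.63 over the 11. PBK, a mitotic kinase, had the largest E2 and the largest siRNA change of the 57 members. It read 8.26 and 8.40 in control-vehicle, 9.45 and 9.75 in control-E2, 7.15 and 7.64 in siRNA-vehicle, and 8.84 and 8.86 in siRNA-E2. No 2 groups overlapped. E2 raised it by 1.36 ± 0.13 (2.57-fold, adjusted p = 0.000918), and the siRNA fall was -0.84 ± 0.13 (0.558-fold, adjusted p = 0.0208), both from limma.

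Cyclin B1, from CCNB1, is the partner that activates CDK1. CCNB1 read 9.77 and 9.74 in control-vehicle, 10.54 and 10.81 in control-E2, 8.90 and 9.08 in siRNA-vehicle, and 10.02 and 10.15 in siRNA-E2. Its 4 groups did not overlap, with an E2 change of 1.01 ± 0.11 (adjusted p = 0.00221) and an siRNA change of -0.68 ± 0.11 (adjusted p = 0.0236). CCNA2, for cyclin A2, which acts in S and G2 phase, read 8.91 and 9.08, then 9.90 and 10.07, then 8.47 and 8.05, and 9.33 and 9.28 in the same order of groups. These groups were also separate, and the changes were 1.02 ± 0.12 (adjusted p = 0.00251) and -0.71 ± 0.12 (adjusted p = 0.0298). CCNB2, for cyclin B2, rose by 1.12 ± 0.15 with E2 (adjusted p = 0.00432). Its siRNA difference of -0.49 ± 0.15 did not pass (adjusted p = 0.264), nor did it with the culture experiment as a block.

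PLK1, a kinase of spindle poles, kinetochores and cytokinesis, read 8.82 and 8.82 in control-vehicle, 10.05 and 10.03 in control-E2, 8.52 and 7.94 in siRNA-vehicle, and 9.54 and 9.21 in siRNA-E2. Its control replicates agreed closely, while its siRNA-vehicle replicates lay far apart. The E2 change was 1.18 ± 0.14 (adjusted p = 0.00251) and the siRNA difference -0.63 ± 0.14 (adjusted p = 0.0909, and 0.0284 with the culture experiment as a block). MELK, a kinase made mostly in dividing cells, read 8.42 and 8.40, then 9.02 and 9.30, then 7.46 and 7.65, and 8.77 and 8.62 in the same order. It rose by 0.95 ± 0.11 with E2 (adjusted p = 0.00251) and fell by 0.66 ± 0.11 with the siRNA (adjusted p = 0.0298).

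CDK1, the kinase that starts mitosis, read 8.41 and 8.64 in control-vehicle, 8.99 and 9.55 in control-E2, 7.15 and 7.74 in siRNA-vehicle, and 8.62 and 8.76 in siRNA-E2. The siRNA-E2 arrays touched the control-vehicle range, and replicates of 2 groups lay more than 0.5 apart. E2 raised it by 0.99 ± 0.16 (adjusted p = 0.0104); the siRNA difference of -0.83 ± 0.16 was nearly as large as that of PBK but did not pass (adjusted p = 0.0546, and 0.00469 with the block). AURKA, the spindle pole kinase, NEK2, a kinase of centrosome separation, and CDC25C, the phosphatase that frees CDK1, rose with E2 by 0.89 ± 0.12, 0.91 ± 0.15 and 0.62 ± 0.11. CDCA3 was the member of this role that did not pass, with 0.38 ± 0.16 (adjusted p = 0.486).

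Of the 7 spindle checkpoint and cohesion-protection genes, 6 rose with E2 (median 0.83) and 2, CDC20 and TTK, fell with the siRNA (median -0.57). SGO1, the shugoshin that shields centromeric cohesin in mitosis, read 6.76 and 6.68 in control-vehicle, 7.77 and 7.99 in control-E2, 6.39 and 5.88 in siRNA-vehicle, and 7.14 and 7.33 in siRNA-E2. Its groups did not overlap, with an E2 rise of 1.13 ± 0.13 (adjusted p = 0.00251) and an siRNA difference of -0.62 ± 0.13 (adjusted p = 0.0783, and 0.0464 with the block). Its relative SGO2 read 5.80 and 6.15, then 6.31 and 6.88, then 6.05 and 5.91, and 6.13 and 6.31 in the same order. Here control-vehicle overlapped both siRNA groups, the E2 difference was 0.43 ± 0.14 (adjusted p = 0.28; 95% interval 0.11 to 0.74) and the siRNA difference -0.18 ± 0.14.

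TTK, the kinase that starts checkpoint signalling at free kinetochores, read 6.89 and 6.88 in control-vehicle, 7.70 and 7.89 in control-E2, 5.81 and 6.14 in siRNA-vehicle, and 7.06 and 7.53 in siRNA-E2. It rose by 1.11 ± 0.13 (adjusted p = 0.00251) and fell by 0.71 ± 0.13 (adjusted p = 0.0474) in the averaged effects, with no overlap between groups. CDC20, the checkpoint's target and activator of the anaphase-promoting complex, read 8.43 and 8.51, then 9.36 and 9.47, then 8.14 and 7.88, and 8.76 and 8.70. It rose by 0.83 ± 0.11 with E2 (adjusted p = 0.00324) and fell by 0.57 ± 0.11 with the siRNA (adjusted p = 0.0465). MAD2L1, the MAD2 protein that restrains CDC20, read 7.07 and 6.97, then 7.73 and 7.85, then 6.10 and 6.58, and 7.12 and 7.28. Its groups were separate too, with a rise of 0.81 ± 0.13 (adjusted p = 0.00787) and an siRNA difference of -0.64 ± 0.13 (adjusted p = 0.0583, and 0.0231 with the block). The checkpoint kinase BUB1 and its relative BUB1B rose with E2 by 1.04 ± 0.15 and 0.83 ± 0.12.

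Of the kinetochore and centromere genes, 7 of 13 rose with E2 (median 0.77) and 2 of 13, NUF2 and SKA3, fell with the siRNA (median -0.44). The NDC80 complex, which grips microtubules, has 4 subunits on the list. NUF2 read 8.28 and 8.39 in control-vehicle, 9.28 and 9.45 in control-E2, 7.30 and 7.53 in siRNA-vehicle, and 8.62 and 8.69 in siRNA-E2. Its 4 groups were clearly apart, with an E2 rise of 1.14 ± 0.11 (2.21-fold, adjusted p = 0.000918) and an siRNA fall of -0.81 ± 0.11 (0.569-fold, adjusted p = 0.0111), the smallest siRNA p of all members. SPC25 read 6.84 and 7.03, then 7.47 and 7.96, then 6.02 and 6.15, and 7.19 and 7.31. It rose by 0.97 ± 0.13 (adjusted p = 0.00344), and its siRNA difference of -0.66 ± 0.13 passed with the block (adjusted p = 0.0132) but not without it (0.0546).

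NDC80, the subunit that names the complex, rose with E2 by 1.09 ± 0.15 (adjusted p = 0.00509). Its siRNA difference of -0.50 ± 0.15 did not pass with or without the block. SPC24, the partner of SPC25, read 6.42 and 6.73 in control-vehicle, 6.82 and 7.16 in control-E2, 6.61 and 6.54 in siRNA-vehicle, and 6.73 and 6.87 in siRNA-E2. Its groups were close and partly overlapped. Neither its E2 difference of 0.32 ± 0.12 (95% interval 0.06 to 0.58, adjusted p = 0.386) nor its siRNA difference of -0.10 ± 0.12 (interval -0.36 to 0.17) passed, and the latter was the smallest of the 57. The E2 intervals of NUF2 (0.91 to 1.38), NDC80 (0.75 to 1.42) and SPC25 (0.70 to 1.25) lay above that of SPC24; this difference between genes was not tested.

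SKA3, of the complex that follows shrinking microtubule ends, read 7.03 and 7.03 in control-vehicle, 7.97 and 8.08 in control-E2, 6.46 and 6.34 in siRNA-vehicle, and 7.47 and 7.33 in siRNA-E2. Replicates differed by at most 0.14, and no groups overlapped. It rose by 1.00 ± 0.10 (adjusted p = 0.00137) and fell by 0.63 ± 0.10 (adjusted p = 0.0236). Its partner SKA1 had 0.70 ± 0.16 with E2 (adjusted p = 0.0605, and 0.0176 with the block). KNL1, the scaffold for BUB1, CENPF, a large outer kinetochore protein, and CENPN, which reads the centromeric nucleosome, rose with E2 by 0.89 ± 0.14, 0.82 ± 0.17 and 0.77 ± 0.11.

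The remaining kinetochore genes did not pass in either averaged effect. CENPK read 7.78 and 8.16 in control-vehicle, 7.99 and 8.86 in control-E2, 6.88 and 7.42 in siRNA-vehicle, and 8.30 and 8.19 in siRNA-E2. Its control arrays with and without E2 overlapped, while its siRNA arrays with and without E2 lay wide apart. The averaged E2 difference was 0.77 ± 0.19 (adjusted p = 0.0843, and 0.0161 with the block). CENPE, the kinesin that carries chromosomes to the spindle equator, read 5.83 and 6.77, then 6.22 and 6.98, then 5.93 and 6.43, and 6.18 and 6.73. In every group its replicate 2 was the higher by at least 0.50, more than the E2 difference of 0.29 ± 0.23, the smallest of the 57 (95% interval -0.22 to 0.80, adjusted p = 0.916). With the culture experiment as a block the difference was 0.29 ± 0.11 (interval 0.05 to 0.53), still not called (adjusted p = 0.318). CENPI and ZWINT differed with E2 by 0.74 ± 0.21 and 0.52 ± 0.16, with adjusted p of 0.147 and 0.226, and neither passed with the block.

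All 10 members listed under the kinesin role rose with E2 (median 0.93, range 0.77 to 1.06). KIF20A, KIF23, KIF2C and KIFC1 fell with the siRNA (median -0.60 over the 10). The kinesin CENPE, counted with the kinetochore above, did not pass for E2. Nor did KIF18B, KIF22, KIF24 and KIF2A of a further spindle list, with 0.25 ± 0.12, 0.43 ± 0.11, 0.29 ± 0.12 and 0.24 ± 0.12. KIF23, the motor of centralspindlin at the midzone, read 9.41 and 9.39 in control-vehicle, 10.07 and 10.25 in control-E2, 8.64 and 8.56 in siRNA-vehicle, and 9.63 and 9.64 in siRNA-E2. The replicates lay within 0.18 of each other and no groups overlapped. It rose by 0.90 ± 0.10 (1.86-fold, adjusted p = 0.00226) and fell by 0.66 ± 0.10 (adjusted p = 0.0197). KIF2C, which takes microtubules apart at the centromere, read 7.74 and 7.73, then 8.38 and 8.62, then 7.02 and 6.98, and 8.04 and 7.87. It rose by 0.86 ± 0.11 (adjusted p = 0.00282) and fell by 0.64 ± 0.11 (adjusted p = 0.0293).

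KIFC1, the minus-end motor that focuses spindle poles, read 9.04 and 9.07 in control-vehicle, 9.72 and 9.90 in control-E2, 8.46 and 8.35 in siRNA-vehicle, and 9.32 and 9.18 in siRNA-E2. Again no groups overlapped, with a rise of 0.80 ± 0.10 (adjusted p = 0.00326) and a fall of -0.61 ± 0.10 (adjusted p = 0.0324). KIF18A, which damps chromosome movement, read 7.48 and 7.49, then 8.32 and 8.69, then 6.69 and 6.93, and 7.70 and 8.12. It had the largest E2 rise of the kinesins, 1.06 ± 0.13 (adjusted p = 0.00293), and an siRNA difference of -0.63 ± 0.13 (adjusted p = 0.0743, and 0.0155 with the block). KIF11, the motor that pushes the spindle poles apart, rose by 1.01 ± 0.14, and KIF15, which can help it, by 0.77 ± 0.14. KIF20A, a midzone motor needed for cytokinesis, rose by 0.98 ± 0.13 and fell by 0.76 ± 0.13 with the siRNA (adjusted p = 0.0365), the largest siRNA change of the kinesins. KIF14, KIF20B and KIF4A, also midzone or midbody motors, rose by 1.02 ± 0.20, 0.96 ± 0.18 and 0.88 ± 0.16.

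The chromosomal passenger complex corrects faulty attachments and later marks the cleavage plane. Of its 4 genes 2 rose with E2 (median 0.59) and 0 fell with the siRNA (median -0.24; 2 had an unadjusted p below 0.05), the smallest medians of the 7 roles. CDCA8, the borealin subunit, read 7.64 and 7.60 in control-vehicle, 8.48 and 8.52 in control-E2, 7.16 and 7.40 in siRNA-vehicle, and 8.03 and 8.04 in siRNA-E2. No groups overlapped, and it rose by 0.82 ± 0.10 (adjusted p = 0.00294), with an siRNA difference of -0.40 ± 0.10 (adjusted p = 0.15). BIRC5, survivin, read 8.35 and 8.65, then 8.87 and 9.33, then 8.25 and 8.02, and 8.85 and 8.78; it rose by 0.64 ± 0.13 (adjusted p = 0.0357), with an siRNA difference of -0.32 ± 0.13.

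AURKB, the kinase of the complex, read 8.66 and 8.74 in control-vehicle, 9.19 and 9.25 in control-E2, 8.78 and 8.28 in siRNA-vehicle, and 9.25 and 8.95 in siRNA-E2. Its E2 arrays all lay above its vehicle arrays, but the siRNA groups overlapped the controls within each medium. The E2 difference was 0.54 ± 0.13 (adjusted p = 0.0786, and 0.0432 with the block) and the siRNA difference -0.15 ± 0.13 (95% interval -0.43 to 0.14). INCENP, its scaffold, read 8.96 and 9.00, then 9.20 and 9.42, then 8.98 and 8.67, and 9.25 and 9.04. It behaved like AURKB in the order of arrays, with 0.33 ± 0.12 for E2 (adjusted p = 0.318) and -0.16 ± 0.12 for the siRNA (interval -0.41 to 0.10).

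Of the 5 cytokinesis genes 4 rose with E2 (median 0.78) and SHCBP1 fell with the siRNA (median -0.51 over the 5). When the 5 kinesins of the midzone and midbody were counted with them, 9 of 10 rose and 3 fell, with medians of 0.89 and -0.57. SHCBP1, a midbody protein that binds centralspindlin, read 8.49 and 8.43 in control-vehicle, 9.18 and 9.24 in control-E2, 7.72 and 7.63 in siRNA-vehicle, and 8.54 and 8.73 in siRNA-E2. Every group was separate from the others, with siRNA-E2 just above control-vehicle. It rose by 0.85 ± 0.10 (adjusted p = 0.00252) and fell by 0.68 ± 0.10 (adjusted p = 0.0192).

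RACGAP1, the partner of KIF23 in centralspindlin, read 9.69 and 9.66 in control-vehicle, 10.37 and 10.50 in control-E2, 9.20 and 9.14 in siRNA-vehicle, and 9.96 and 9.92 in siRNA-E2. Like KIF23 it had close replicates and separate groups, with a rise of 0.76 ± 0.10 (adjusted p = 0.00343) and an siRNA difference of -0.50 ± 0.10 (adjusted p = 0.0591; it passed with the block). ANLN, the anillin scaffold of the contractile ring, read 9.69 and 10.08, then 10.48 and 10.98, then 9.18 and 9.26, and 10.07 and 10.34. It rose by 0.92 ± 0.14 (adjusted p = 0.00787), with an siRNA difference of -0.60 ± 0.14 (adjusted p = 0.114; it passed with the block). PRC1, which bundles midzone microtubules, rose by 0.78 ± 0.13, and ECT2, which switches on RhoA at the cleavage site, had 0.52 ± 0.14 (adjusted p = 0.128, and 0.0187 with the block).

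Of the 7 spindle assembly and mitotic chromosome genes 6 rose with E2 (median 0.92), and CDCA2 fell with the siRNA (median -0.56). MKI67, the Ki-67 protein that coats mitotic chromosomes and is used as a proliferation marker, read 8.84 and 9.08 in control-vehicle, 9.81 and 10.05 in control-E2, 8.49 and 8.01 in siRNA-vehicle, and 9.35 and 9.49 in siRNA-E2. Its groups were separate, with a rise of 1.07 ± 0.13 (adjusted p = 0.00287) and an siRNA difference of -0.61 ± 0.13 (adjusted p = 0.0868). That difference did not pass with the block either. CDCA2, which brings a phosphatase to anaphase chromosomes, read 7.81 and 7.94, then 8.58 and 8.83, then 7.31 and 7.32, and 8.15 and 8.13. It rose by 0.83 ± 0.10 (adjusted p = 0.0031) and fell by 0.56 ± 0.10 (adjusted p = 0.0474). TPX2, the activator of AURKA on the spindle, read 9.64 and 9.82, then 10.41 and 10.81, then 9.03 and 9.02, and 9.93 and 10.16, with a rise of 0.95 ± 0.12 (adjusted p = 0.00325). The spindle proteins DLGAP5 and NUSAP1 rose by 0.92 ± 0.15 and 0.87 ± 0.14, and TOP2A, the topoisomerase that untangles sister chromatids, by 0.91 ± 0.17. HMMR had 0.98 ± 0.22 (adjusted p = 0.0545, and 0.00627 with the block).

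**Figure D2:**
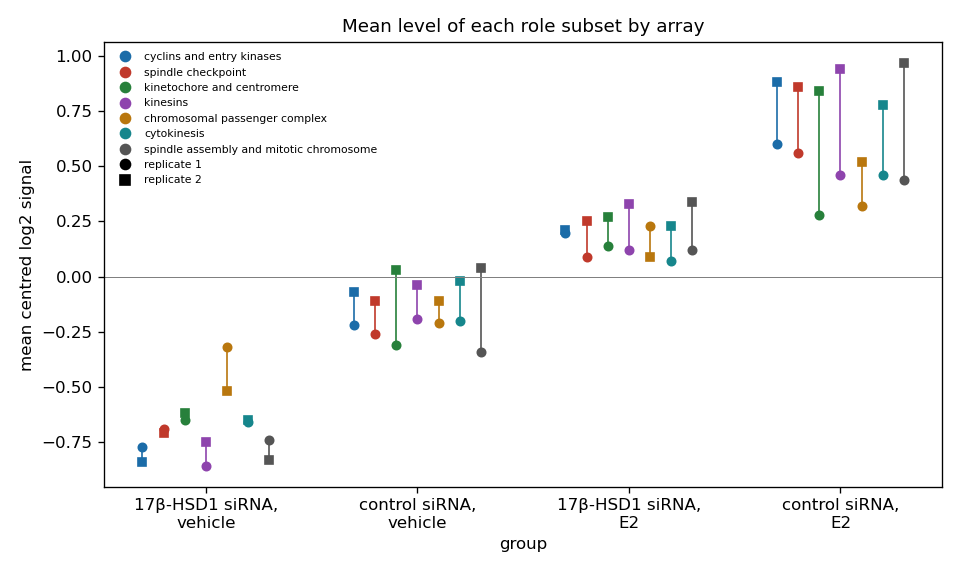
Mean level of each role in each array, as log2 signal centred on each gene's mean over the 8 arrays; colours are the 7 roles, circles replicate 1 and squares replicate 2, joined within a group. For each of the 7 roles the groups stand in the order siRNA-vehicle, control-vehicle, siRNA-E2 and control-E2, and the chromosomal passenger complex spans the narrowest range, from -0.52 to 0.52.

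**Figure D3:**
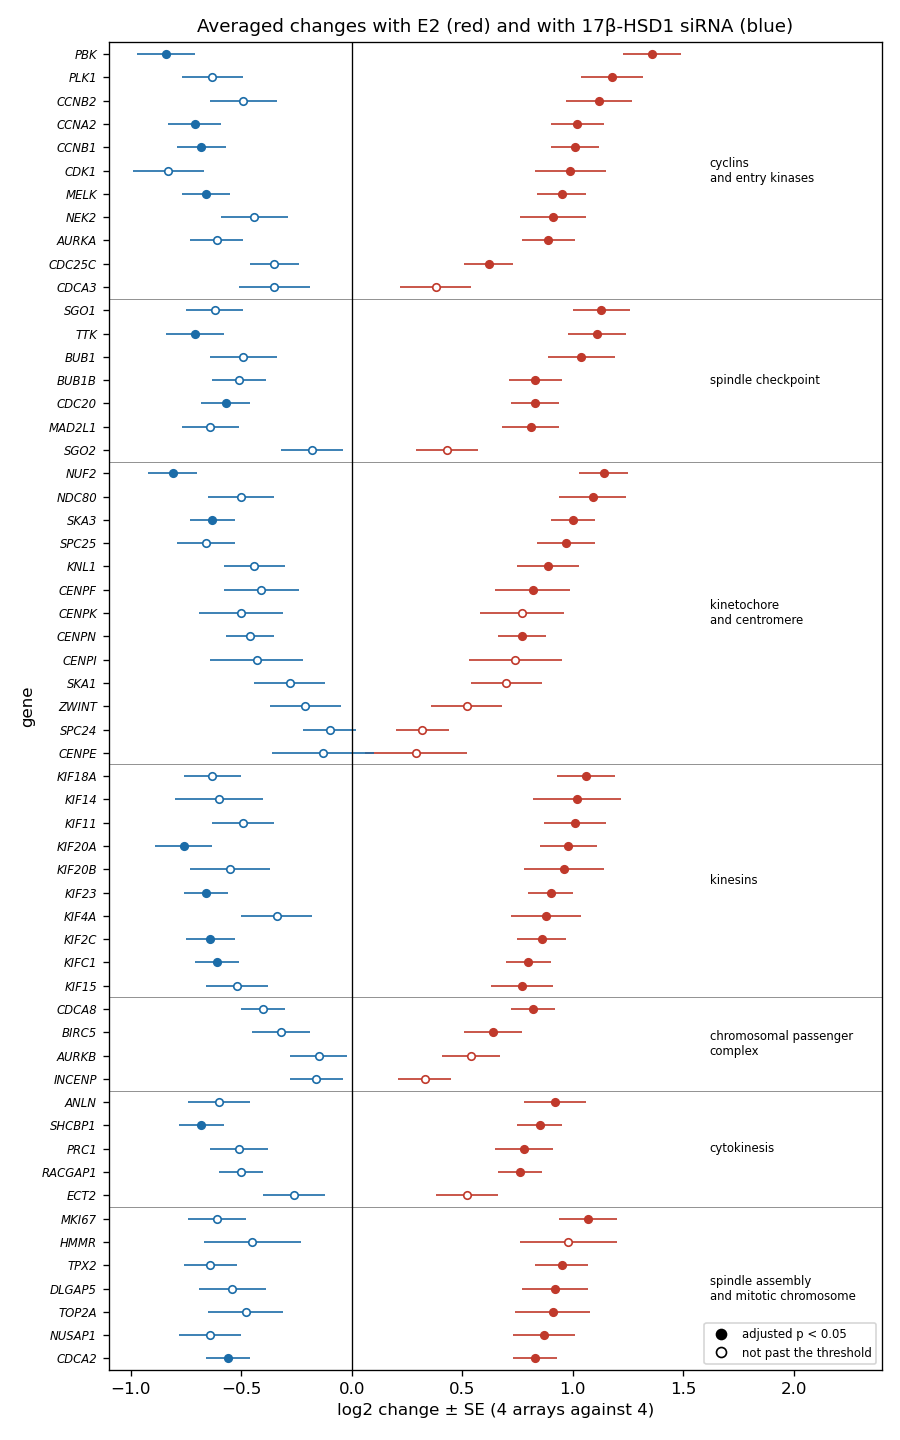
Averaged E2 change (red, right) and averaged siRNA change (blue, left) of each mitotic gene on the log2 scale, with the standard error of 4 arrays against 4; filled points passed an adjusted p of 0.05 in limma. The 45 filled red points include all 10 genes of the kinesin role, and the 14 filled blue points include 0 of the 4 passenger complex genes.

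The count of siRNA falls depended on single arrays, on how the culture experiment was treated and on which probe sets were tested. With the experiment number as a block, 26 members fell in place of 14 (0.618% of all probe sets), the added ones being ANLN, AURKA, CDK1, KIF15, KIF18A, MAD2L1, NUSAP1, PLK1, RACGAP1, SGO1, SPC25 and TPX2. The block moved the rises with E2 from 45 to 50 (1.85% of probe sets). With all 33297 deposited probe sets tested, 0 members and 0 probe sets were called lower with the siRNA. The E2 rises then numbered 28 in the members and 95 over all probe sets. The number called also shifted when 1 array was left out, among the members and over all probe sets. Each such fit leaves 1 array in a group. The median siRNA change of the members stayed between -0.65 and -0.40 in all 8 of these fits. Without replicate 1 of siRNA-vehicle, the array that stood apart, this median was -0.54. The median E2 change of the members stayed between 0.79 and 1.01.

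Within each siRNA, all 57 members were higher with E2, but with 2 arrays against 2 fewer passed the threshold. With control siRNA the median rise was 0.78, and 3 members passed: PBK (1.27 ± 0.18), NUF2 (1.04 ± 0.15) and SKA3 (1.00 ± 0.14), with adjusted p of 0.0402, 0.0409 and 0.0402 in limma. Over all probe sets 0.0707% were called higher. CDC20 (0.94 ± 0.15), SGO1 (1.16 ± 0.18) and PLK1 (1.22 ± 0.19) came next, each with an adjusted p of 0.0532. In 53 members both control-E2 arrays lay above both control-vehicle arrays, against 16.6% of probe sets; CDCA3, CENPE, CENPK and ZWINT were the 4 that overlapped.

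After the 17β-HSD1 siRNA the median E2 rise was 0.96, and 19 members passed, where 0.269% of all probe sets were called higher. They were CCNA2, CCNB1, PLK1, MELK and PBK among the cyclins and kinases, TTK and SGO1 of the checkpoint, and NUF2, NDC80, SPC25 and SKA3 of the kinetochore. The others were KIF2C, KIF11, KIF18A, KIF23, KIFC1, SHCBP1, TPX2 and MKI67. PBK rose by 1.45 ± 0.18 (adjusted p = 0.0196), TTK by 1.32 ± 0.19 (adjusted p = 0.0258) and NUF2 by 1.25 ± 0.15 (adjusted p = 0.0173). MELK rose by 1.14 ± 0.16, CCNB1 by 1.10 ± 0.15 and KIF23 by 1.03 ± 0.14, with adjusted p of 0.0253, 0.0258 and 0.0253. Both siRNA-E2 arrays lay above both siRNA-vehicle arrays in 56 members (12.6% of probe sets), all but CENPE. Within each siRNA separately, the arrays did not overlap in 53 members, against 6.2% of probe sets.

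With the block, 25 members rose with control siRNA (0.42% of probe sets) and 37 with 17β-HSD1 siRNA (0.509%). Without the block, both counts shifted when 1 array was left out, as did the counts over all probe sets. The median rise of the members then lay between 0.61 and 1.00 with control siRNA. After the 17β-HSD1 siRNA it lay between 0.88 and 1.03.

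In vehicle, the 17β-HSD1 siRNA gave a median difference of -0.59, and 56 of 57 members were lower, but 0 passed limma's threshold, as did 0 of all 21214 probe sets (0% called lower). At an unadjusted p below 0.05, 42 members were lower, where 5.45% of all probe sets had such a p in either direction. NUF2 (-0.92 ± 0.15, adjusted p = 0.181), KIF23 (-0.80 ± 0.14, adjusted p = 0.188), SHCBP1 (-0.79 ± 0.14) and MELK (-0.85 ± 0.16, both with an adjusted p of 0.193) had the smallest p, followed by PBK (-0.93 ± 0.18) and CCNB1 (-0.77 ± 0.15). The largest difference was that of CDK1, -1.08 ± 0.23 (adjusted p = 0.237). Both siRNA arrays lay below both controls in 48 members, against 12.1% of probe sets. With the block CDK1, NUF2 and PBK passed (adjusted p = 0.0268, 0.03 and 0.0494), where 0.0283% of probe sets were called lower, and in a fit of the 4 vehicle arrays alone 1 member passed, where 0.0566% were called lower.

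In E2, the median siRNA difference was -0.47 and all 57 members were lower, again with 0 past the threshold and 0% of all probe sets called lower. There were 33 members with an unadjusted p below 0.05, against 4.61% of probe sets in either direction. With the block 0 members passed, where 0.0189% of probe sets were called lower, and 0 passed in the 4-array fit. NUF2 (-0.71 ± 0.15, adjusted p = 0.298), CDC20 (-0.69 ± 0.15, adjusted p = 0.303), SKA3 (-0.62 ± 0.14), PBK (-0.75 ± 0.18), CCNA2 (-0.69 ± 0.17) and SHCBP1 (-0.58 ± 0.14) had the smallest p. Both siRNA arrays lay below both controls in 36 members, where 20% of probe sets did so. The median depended on single arrays: it was -0.24 without replicate 2 of control-E2 and -0.67 without replicate 1. In both media at once, the arrays did not overlap in 35 members, against 6.26% of probe sets.

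**Figure D4:**
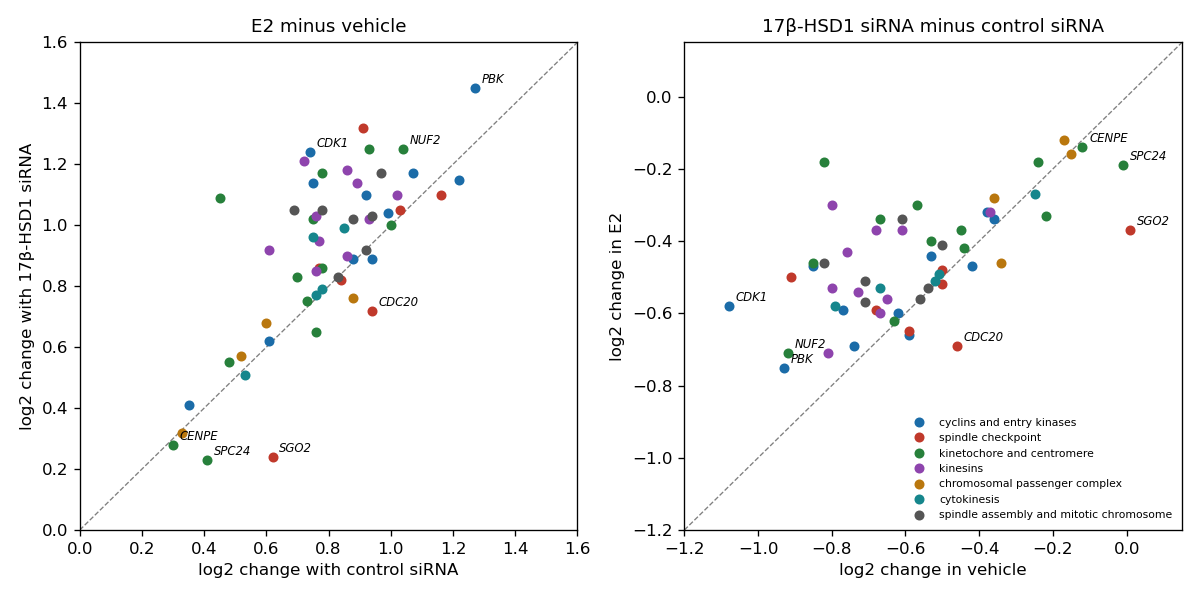
Left, the E2 change of each mitotic gene with control siRNA (horizontal) and with 17β-HSD1 siRNA (vertical); right, the siRNA change in vehicle (horizontal) and in E2 (vertical), both log2, coloured by role, with the line of equal change. In the left panel 44 of 57 genes lie above the line, and 0 of the differences passed a test.

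The interaction, the E2 change after 17β-HSD1 siRNA minus that after control siRNA, was called in 0 members and 0% of all probe sets (0 of 57 members also had an unadjusted p below 0.05, against 0.66% of probe sets). Its median over the members was 0.08, and it was above 0 in 44 of 57, so that the siRNA difference was the larger in vehicle in the same 44. This median rested on single arrays: it was 0.32 without replicate 2 of control-E2 and -0.08 without replicate 1, 0.20 and 0.00 without replicate 1 or 2 of control-vehicle, 0.14 without replicate 1 of siRNA-vehicle and 0.16 without replicate 1 of siRNA-E2. MELK had the smallest p, with 0.39 ± 0.22 (95% interval -0.10 to 0.88), then CENPK with 0.64 ± 0.38 (interval -0.19 to 1.47) and CDK1 with 0.50 ± 0.32 (interval -0.20 to 1.20). These intervals are wide enough to hold both equal responses and a much larger E2 response after the siRNA. By role the interaction was above 0 in all 10 kinesins (median 0.21) and in 3 of 7 checkpoint genes (median -0.02). Across the 57 members, the E2 changes with the 2 siRNAs, which share no arrays, had a Pearson correlation of 0.74 and a Spearman correlation of 0.61. The siRNA changes in the 2 media had 0.62 and 0.56. Members of this list are not independent of each other, and these coefficients describe this list alone.

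The level reached with E2 after the 17β-HSD1 siRNA was set against control cells in vehicle. All 57 members were higher in siRNA-E2, with a median difference of 0.32 (range 0.03 to 0.63), but 0 passed the threshold (0.00471% of all probe sets did, and 14 members had an unadjusted p below 0.05, against 3.95% of probe sets). With the block 0 members passed and 0.344% of probe sets were called higher. The smallest p belonged to CCNB2 (0.63 ± 0.22, adjusted p = 0.836), CDCA8 (0.42 ± 0.15, adjusted p = 0.836) and PBK (0.52 ± 0.18, adjusted p = 0.871). Both siRNA-E2 arrays lay above both control-vehicle arrays in 43 members, against 15.2% of probe sets.

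Other genes of the pathway were read from lists of 134 genes, of which 131 were measured. Over all probe sets, 1.32% were called higher with E2, 0.226% lower with E2 and 0.217% lower with the siRNA. Among 22 transcription factors of the mitotic program 4 rose with E2 and 1 fell, with a median of 0.23. The risers were FOXM1 (0.95 ± 0.14), MYBL2 (0.95 ± 0.17), E2F7, a repressor of the E2F family (0.74 ± 0.11), and LIN9 (0.67 ± 0.11), a core subunit of the complexes that bind the CHR. LIN54, named above with the CHR, did not pass (0.28 ± 0.11). Nor did RBBP4 (0.14 ± 0.11), LIN52 (0.02 ± 0.11) and LIN37 (-0.03 ± 0.12) of the same list. NFYB, a subunit of NF-Y, fell by 0.70 ± 0.13 (adjusted p = 0.0225 in limma). It read 9.91 and 9.39 in control-vehicle, 8.68 and 8.52 in control-E2, 9.03 and 9.27 in siRNA-vehicle, and 8.78 and 8.83 in siRNA-E2, so that the E2 arrays lay below the vehicle arrays and the control-vehicle replicates were 0.52 apart. FOXM1 read 8.73 and 9.11, then 9.63 and 10.09, then 8.73 and 8.31, and 9.49 and 9.45, with the group order of the mitotic genes.

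Of 20 anaphase-promoting complex and mitotic exit genes 5 rose with E2 (median 0.07): PTTG1, the securin that holds separase (1.10 ± 0.13), ESPL1, separase itself (0.83 ± 0.13), FBXO5, an inhibitor of the complex (0.75 ± 0.11), and its ubiquitin-conjugating enzymes UBE2C (0.75 ± 0.12) and UBE2S (0.54 ± 0.11). Among the 8 condensin subunits, which compact mitotic chromosomes, 6 rose (median 0.58), led by NCAPG (0.94 ± 0.15) and NCAPH (0.80 ± 0.12). A further 24 measured kinetochore and centromere genes had 7 risers (median 0.29), with CENPW (0.89 ± 0.13) the largest. Of 35 further spindle and cytokinesis genes 9 rose (median 0.29), among them ARHGAP11A (1.11 ± 0.15) and CEP55 (0.96 ± 0.13), a midbody protein. For the siRNA, 0 transcription factors, mitotic exit genes, condensins and further kinetochore genes passed limma's threshold, while 8 of 22, 6 of 20, 5 of 8 and 11 of 24 had an unadjusted p below 0.05, against 9.44% of all probe sets. Their medians were -0.18, -0.11, -0.42 and -0.25. Of the 35 further spindle and cytokinesis genes 1 passed and 13 had an unadjusted p below 0.05, with a median of -0.23.

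HAUS2, a subunit of the augmin complex that branches spindle microtubules, was the 1 gene of these lists that fell with the siRNA, by 0.74 ± 0.10 (adjusted p = 0.0138). It read 7.55 and 7.46 in control-vehicle, 8.06 and 7.84 in control-E2, 6.69 and 6.79 in siRNA-vehicle, and 7.22 and 7.26 in siRNA-E2. Unlike the mitotic members, its siRNA-E2 arrays lay below its control-vehicle arrays. Its E2 rise was 0.47 ± 0.10 (adjusted p = 0.0491). A list of 22 other kinesin and kinesin-associated genes, grouped as transport kinesins, had 0 calls in either averaged effect. Its median E2 change was -0.04 and its median siRNA change 0.05, beside 0.93 and -0.60 in the 10 members of the kinesin role. At an unadjusted limma p below 0.05 there were 1 and 5 of the 22, where 8.89% and 9.44% of all probe sets had such a p.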

How the data were processed

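Affymetrix Human Gene 1.0 ST arrays were hybridised with RNA of 8 T47D cultures, per the labels' protocols. The deposited table holds log2 signals of 33297 probe sets; no step was added before the tests. How they were summarised and normalized is not given in the sources used here. Precision is limited by having 2 arrays a group.

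Symbols came from the platform annotation, where 19460 probe sets have 1 symbol, 1754 several and 12083 none, and the 21214 with at least 1 were tested. limma 3.58.1 in R 4.3.3 was fitted with 1 coefficient per group over all 8 arrays (lmFit, then eBayes) and 8 contrasts, and p-values were adjusted over all 21214. Changes are log2 differences ± SE. The fit was checked on data with known changes.

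The members and lists were chosen with earlier results of these data known. Values by array are given for up to 3 members per role with the smallest p in each averaged effect, up to 6 in each effect within 1 siRNA or medium, up to 3 in the interaction, and the largest and smallest changes; SGO2 was added after its values were seen. For the other lists the rule names up to 4 genes per averaged effect and any called. FOXM1, NFYB and HAUS2 were picked from these for values by array. LIN37, LIN52, LIN54 and RBBP4 were named outside this rule.

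The labels number the 2 replicates of each group and describe 2 independent culture experiments, and the number was therefore read as marking the experiment. Deviations of same-numbered arrays from their group means correlated at 0.44, 0.31, 0.31 and 0.42 in 4 pairs of groups, at 0.01 for control-vehicle with siRNA-E2 and at -0.20 for control-vehicle with siRNA-vehicle. Alternatives were the experiment as a block, leaving out each array, fits of the 4 arrays compared, quantile normalization on top of the deposited values, a robust trended prior for the spread, other sets of probe sets, and the mean over a gene's probe sets.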

Additional observations from a re-analysis of the deposited data

How the results depend on the processing

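The averaged E2 rises numbered 45 as reported, 28 when all probe sets of the table were tested, and from 29 to 49 when 1 array was left out. The averaged siRNA falls numbered 14 as reported, 0 with all probe sets, 26 with the replicate block, and from 0 to 16 with 1 array left out. The rises with control siRNA numbered 3 as reported, 0 with all probe sets, 0 after a further quantile normalization, 0 in the fit of 4 arrays, 7 with 1 probe set per gene, 7 with means over probe sets, 9 with the trended robust spread, 25 with the block, and from 0 to 8 with 1 array left out. The rises with 17β-HSD1 siRNA numbered 19 as reported, 0 with all probe sets, 11 after quantile normalization, 32 in the fit of 4 arrays, 37 with the block, and from 0 to 29 with 1 array left out. The siRNA falls in vehicle numbered 0 as reported, 3 with the block and 1 in the fit of 4 arrays. The cause of these shifts was not tested. An array left alone in its group was assumed to vary like the others. The block changed no other count of members called by over 1.5 times. Over all probe sets it moved the averaged E2 falls from 48 to 116, the siRNA falls in E2 from 0 to 4, and the calls higher in siRNA-E2 than in control-vehicle from 1 to 73.

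Of 841 values of single members for the averaged E2 effect under these alternatives, 759 kept their side of the threshold, 70 lost it, 12 gained it and 0 changed sign. For the averaged siRNA effect these were 723, 89, 26 and 3; the 3 are CENPE at 0.10, 0.06 and 0.01 without replicate 2 of control-vehicle, replicate 2 of control-E2 or replicate 1 of siRNA-E2, and the cause was not tested. CENPE was not called in any of these, and ranged from -0.37 to 0.10 over the fits with 1 array left out. Of the members, 14 lay at or below the median of all probe sets. Whether low signal limited their results was not tested.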
